A study of Aspergillus nidulans FGSC A4 with 21 samples.

Results

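The late response of *Aspergillus nidulans* to benzo[*a*]pyrene (BaP), a polycyclic aromatic hydrocarbon, was followed by comparing hyphae kept with BaP for 48 h with hyphae kept with BaP for 24 h. The genes are those listed by identifier in both the 24 h and the 48 h tables, which were 915 genes of the 1503 listed at 24 h and the 1529 listed at 48 h, and of the 2403 listed at any time point. They comprised 913 mRNA genes and 2 tRNA genes. Because each table holds only genes that the authors kept as differentially expressed between BaP and DMSO, a transcript that responded at a single time point is not among them. All 915 genes differed from DMSO in the same direction at both times, 456 of them higher with BaP and 459 lower. They were chosen for differing from DMSO at each time, in either direction, and the direction is given here as a description.

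All groups used the strain FGSC A4, which had grown from spores for 18 h in minimal medium with 1% glucose before the mycelium was washed and moved to medium with 0.1% glucose. The 3 BaP libraries of each time received BaP in dimethyl sulfoxide (DMSO) at 200 µM, and the 3 DMSO libraries of each time received the solvent alone. Poly(A)-selected RNA from hyphae was sequenced, and no zero-hour or 6 h library enters the comparisons. The design asks which BaP transcripts rise, hold or fade late, and the DMSO cultures give the same interval of time without BaP.

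BaP is oxidized in fungi by cytochrome P450 monooxygenases (CYPs), after which the products can be broken down further. On a low glucose supply, hyphae of *A. nidulans* shift with time from sugar use to scavenging, and they make secondary metabolites such as sterigmatocystin, a carcinogenic polyketide and a precursor of aflatoxin in related species. The genes of its biosynthesis lie side by side and are switched on by the zinc cluster activator AflR. LaeA and the velvet protein VeA act above AflR in the same fungus.

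Values are reads per kilobase of gene and per megaread of the library (RPKM), read as such from the deposited tables. Library names are the headings of those tables, with B22, B23 and B24 for BaP at 24 h, B28, B29 and B30 for BaP at 48 h, D25 to D27 for DMSO at 24 h and D31 to D33 for DMSO at 48 h. The library sizes recovered from the values were 8.17 to 9.51 M reads (mega) for BaP at 24 h and 5.97 to 7.27 M for BaP at 48 h, so that time and library size cannot be told apart within BaP. These sizes are below the number of reads per sample that the paper states, and what share of those reads they cover is not known. The median gene had 1000 reads over the 3 libraries at 24 h and 645 at 48 h. Library B23 stood apart from the others of its group. On log2(RPKM + 1) over the 915 genes its Pearson correlation was 0.93 with B22 and 0.95 with B24, against 0.99 between B22 and B24, and it was 0.95 with the DMSO library D26. Among the 456 genes higher with BaP, B23 was the lowest 24 h library for 404, and among the 459 lower with BaP it was the highest for 405. Among the DMSO libraries D33 stood apart, with a correlation of 0.83 with D31 and 0.92 with the BaP library B28. None of 12 markers of conidia and conidiophores, such as *brlA*, *wetA* and *rodA*, is listed in both tables, so the labelled tissue could not be checked against them here.

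In the BaP cultures 60 of the 915 genes fell between 24 and 48 h (6.56%), 2 rose (0.219%) and 483 held (52.8%). A gene was counted as rising or falling when its mean log2(RPKM + 1) changed by more than 1 with an adjusted p under 0.05 in limma, and as held when the 95% interval of its change lay within −1 to 1. The other 370 genes were unresolved, since their interval reached past a 2-fold change on the RPKM + 1 scale while they did not pass as changed. Adding 1 shrinks the changes of genes with low RPKM, which makes it easier for them to count as held. With 0.1 added instead, 369 genes held. The 24 and 48 h values stand in 2 tables, normalized in separate fits, whose scales can differ by 0.08 log2 units, and a shift of every change by that amount left 2 rises and gave 75 falls, with all 60 genes among them. Centring every library on its median moved the median change of all genes by 0.21 log2 units and gave 11 rises and 37 falls, all 37 of them among the 60, so that the share of rises among the calls was 3.23% as measured and 22.9% after centring. The falls were 25 without B24, 32 without B29 and 26 without B30, all of them among the 60, and 53 without B23, of which 49 were among the 60. The labels number the samples of a group but do not say whether they were separate cultures, so the p-values measure the spread between these samples. In bulk RNA a fall from fewer cells of a kind and a fall from less RNA per cell cannot be told apart.

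**Figure D1:**
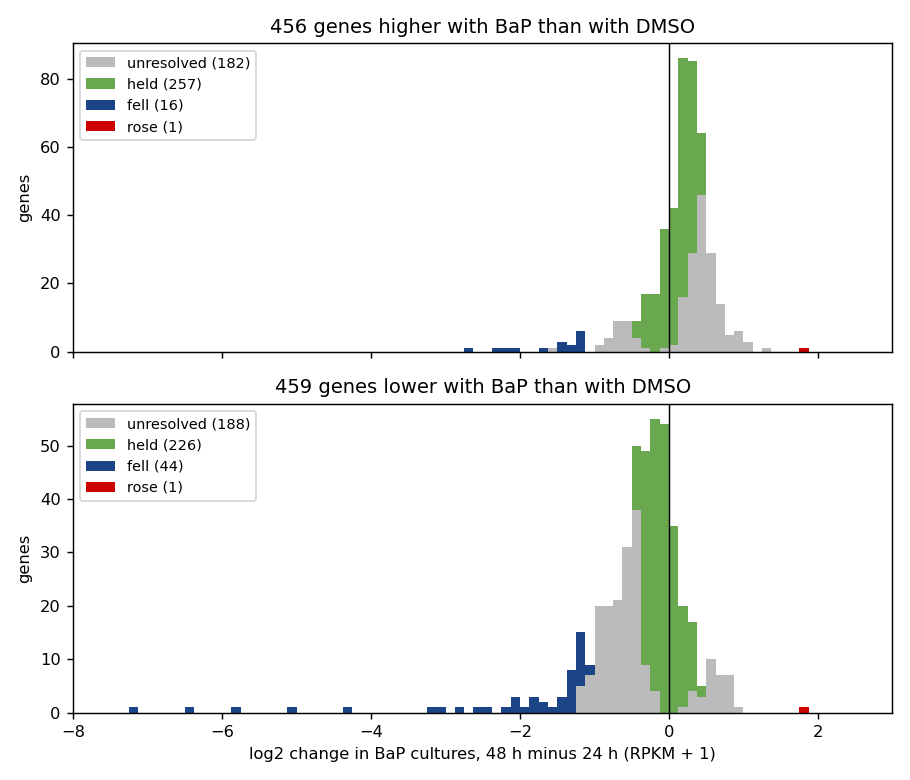
Histogram of the log2 change of RPKM + 1 from 24 to 48 h in BaP cultures (horizontal axis) against the number of genes (vertical axis), for the 456 genes higher and the 459 genes lower with BaP than with DMSO. Colours give the genes that fell, rose, held or were unresolved. The upper panel has a median of 0.23 and the lower one of −0.31, and the long lower tail past −3 is made of genes lower with BaP.

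Among the genes higher with BaP, 257 of 456 held (56.4%), 16 fell, 1 rose and 182 were unresolved. Among those lower with BaP, 226 of 459 held (49.2%), 44 fell, 1 rose and 188 were unresolved. The median change was 0.23 for the genes higher with BaP and −0.31 for those lower with BaP. Both medians moved with B23, and without it they were −0.03 and −0.12, with 341 and 294 genes held (69.4% of all 915 genes). Of the 198 shared genes that the 6 h table also lists, 114 held from 24 to 48 h, 10 fell and none rose.

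The deepest falls belonged to the sterigmatocystin gene cluster. All 5 listed sterigmatocystin genes fell, with a median log2 change of −4.28, against −0.02 over all 915 genes. The 8 fallen genes of this region lay on chromosome IV between position 2739867, the start of *stcV*, and position 2790165, the end of *stcA*, in the coordinates of the deposited tables, which name no genome build.

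*aflR* (AN7820, IV, 2774842 to 2776397) encodes the activator of the cluster. Its RPKM values were 67.0, 55.6 and 52.0 at 24 h and 4.73, 5.78 and 6.54 at 48 h with BaP. Every 48 h library was below every 24 h library, and the log2 change was −3.15 ± 0.24 (SE, n = 3 per time, adjusted p = 1.1e-05). In DMSO *aflR* was at 125, 112 and 135 RPKM at 24 h and at 56.1, 44.7 and 26.7 RPKM at 48 h. The DMSO groups did not overlap either, but the log2 change of −1.58 missed the threshold (adjusted p = 0.073).

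*stcA* (AN7825) encodes the polyketide synthase that makes the backbone of the toxin. It was at 80.6, 57.2 and 54.5 RPKM at 24 h and at 1.07, 0.768 and 1.04 RPKM at 48 h with BaP, a mean that was 67.0-fold lower, with 12101 reads at 24 h and 132 at 48 h. The log2 change was −5.04 ± 0.25 (adjusted p = 2.1e-07), and both groups were tight next to the distance between them. In DMSO it went from 132, 133 and 129.7 RPKM to 7.96, 3.91 and 4.13 RPKM, a log2 change of −4.44 that also passed the test (adjusted p = 0.0005).

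*stcN* (AN7812) encodes a putative versicolorin B synthase, which acts in the middle of the pathway. Its RPKM went from 195, 119.6 and 131 to 2.09, 1.38 and 1.43 with BaP, a log2 change of −5.81 ± 0.27. *stcV* (AN7805), for a putative norsolorinic acid reductase, went from 160.2, 139 and 151 to 9.28, 6.28 and 5.20 RPKM, a log2 change of −4.28 ± 0.26. *stcF* (AN7818), for a P450 monooxygenase of the pathway, went from 84.4, 70.8 and 65.9 to 5.99, 9.43 and 9.59 RPKM, a log2 change of −3.02 ± 0.26. The order of depth was thus *stcN*, *stcA* and *stcV* ahead of *aflR* and *stcF*, and the 95% intervals of *aflR* (−3.67 to −2.62) and *stcF* (−3.59 to −2.45) overlapped.

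The gene with the largest fall of all was AN11017 (IV, 2752920 to 2753565), which lies beside *stcN* and carries no functional description. It was at 429, 286 and 300.3 RPKM at 24 h and at 0.837, 0.983 and 2.52 RPKM at 48 h, with 5534 and 18 reads. The mean was 234-fold lower at 48 h and the log2 change was −7.15 ± 0.31 (adjusted p = 1.1e-07). The tables name AN12099 as a related gene of the same genome, and how reads shared by near copies were counted is not given in the sources used here. AN7809 (IV, 2745574 to 2747209), also without a described function, went from 347, 210.4 and 232 RPKM to 1.73, 2.39 and 2.23 RPKM, a log2 change of −6.38 ± 0.26. AN7819, the neighbour of *aflR* whose orthologs act in the regulation of aflatoxin biosynthesis, went from 69.0, 61.4 and 49.0 RPKM to 15.7, 11.1 and 14.8 RPKM, a log2 change of −2.03 ± 0.25. All 8 genes of the region were called lower whichever of the 6 libraries was dropped. The next listed gene beyond *stcA*, AN7826, was higher with BaP than with DMSO and held (126, 99.3 and 117 against 153, 122 and 128 RPKM, log2 change 0.23 ± 0.23). AN7819 and AN7826 were named after their values were seen.

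**Figure D2:**
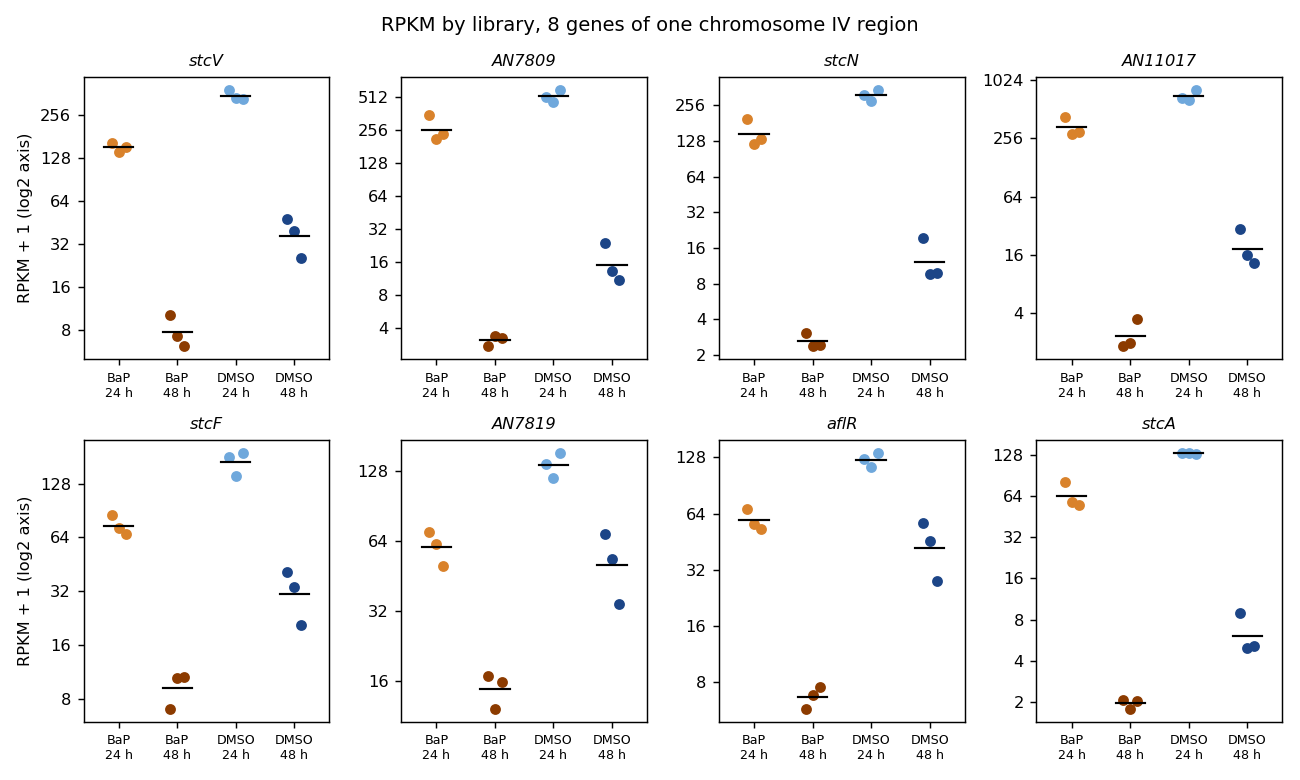
RPKM + 1 on a log2 axis in each of the 12 libraries for 8 genes of the sterigmatocystin region, with points for libraries and a bar for the mean of the log2 values of each group of 3. In every panel the 3 BaP libraries of 48 h lie below the other 9 libraries, and the DMSO libraries fall from 24 to 48 h as well.

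The regulators above the cluster were not called. *laeA* (AN0807), a methyltransferase-domain regulator of secondary metabolism, was at 10.6, 12.5 and 9.04 RPKM at 24 h and at 4.99, 5.22 and 5.77 RPKM at 48 h. The groups did not overlap, and the log2 change of −0.88 ± 0.23 had an adjusted p of 0.044 but stayed short of the size required for a call. *veA* (AN1052) held, at 17.6, 34.8 and 23.8 RPKM against 26.2, 22.7 and 27.3 RPKM (log2 change 0.05 ± 0.28). *fhbB*, for a flavohemoprotein involved in sterigmatocystin production, was higher with BaP than with DMSO and had a log2 change of −0.56 ± 0.23 (adjusted p = 0.20). Among the 19 genes of other secondary metabolism, 12 held and 2 fell, *stcA* again and *aatB*, which acts in penicillin biosynthesis (log2 change −1.14 ± 0.28, a call kept for 2 of the 6 libraries dropped in turn and lost after centring).

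Outside the cluster region 52 genes fell, the deepest by 2.85 on the log2 scale. AN0497, with a domain for transmembrane transport, was at 40.8, 63.5 and 53.4 RPKM at 24 h and at 8.67, 4.90 and 5.81 RPKM at 48 h (log2 change −2.85 ± 0.28, adjusted p = 9.9e-05). *xlnA* (AN3613), for an endo-1,4-beta-xylanase that degrades xylan, was at 10.7, 3.91 and 6.5 RPKM at 24 h and at 0.247, 0.218 and 0.406 RPKM at 48 h. Its log2 change was −2.55 ± 0.31 on RPKM + 1, which understates a change down to 4 reads in all. *oefC*, a zinc finger gene whose overexpression gives a fluffy phenotype, was at 79.5, 189 and 133 RPKM at 24 h and at 49.1, 33.3 and 31.2 RPKM at 48 h (log2 change −1.74 ± 0.33, adjusted p = 0.013). For all 60 fallen genes the 3 libraries of 48 h were below the 3 of 24 h, a separation that 19.9% of all 915 genes showed. Since the falls were called on the same values, this separation is nearly given by the call and adds no support. Of the 60, 22 were called whichever library was dropped.

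Of the 60 fallen genes 56 could be placed in the RefSeq gene order, and 12 of these lay in 5 groups of neighbours with at most 1 gene between them. These groups were *stcN* with AN11017, *stcF* with AN7819 and *aflR*, AN10464 with AN10431 and *tprA* on chromosome II, AN8432 with AN8433 on V, and AN9184 with AN9185 on VI. AN10431 and AN10464, described as induced by nitrate, were much lower with BaP than with DMSO at both times. Of the 10 shared genes so described 3 fell and 3 held, against 6.56% and 52.8% of all 915 genes, and this was not tested. AN6633, also so described, held and was higher with BaP. AN10431 was at 7.87, 10.8 and 11.7 RPKM at 24 h and at 0.773, 0.136 and 2.92 RPKM at 48 h with BaP (log2 change −2.46 ± 0.40, adjusted p = 0.0053), while DMSO had 234, 133 and 154 RPKM at 24 h. These neighbours were named after their values were seen. How many of all listed genes lie as close to another was not counted, so the groups do not show whether falls cluster.

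The transcripts that BaP raised and that then fell numbered 16, with log2 changes from −2.72 to −1.15, and all 16 were also called without B23. None of the 16 was called lower in DMSO, where 1.64% of all 915 genes were, and all 16 had a negative change there. The deepest of the 16 with BaP was AN2398, which has an O-methyltransferase domain. It was at 29.1, 34.3 and 32.1 RPKM at 24 h and at 7.91, 2.02 and 3.59 RPKM at 48 h (log2 change −2.72 ± 0.36, adjusted p = 0.00095), and it went from 2.56, 7.18 and 1.18 to 0.0629, 0.410 and 0.444 RPKM in DMSO. AN3305, with an oxidoreductase domain, went from 206, 92.5 and 145 to 26, 24.3 and 29.8 RPKM (log2 change −2.36 ± 0.30). AN2488, chosen like AN3305 after its values were seen, was the fallen gene with the most reads, with 64062 at 24 h and 21247 at 48 h. It was at 999.9, 1246 and 1403 RPKM and then at 424, 651 and 537 RPKM, a log2 change of −1.19 ± 0.26 that kept its call for 3 of the 6 libraries dropped in turn.

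Rises of the size required for a call were rare. AN6273, of which the tables say only that its orthologs are intracellular, went from 4.95, 5.77 and 3.40 to 35.4, 7.13 and 24.9 RPKM with BaP (log2 change 1.81 ± 0.47, adjusted p = 0.043). The 48 h libraries differed among themselves, with B29 little above the 24 h range. AN7859, with no described function, went from 12.9, 22.9 and 8.17 to 65.9, 56.6 and 29.6 RPKM (log2 change 1.76 ± 0.39, adjusted p = 0.023), and it rose in DMSO too, from 49.7, 43.8 and 45.4 to 212, 224 and 121 RPKM (log2 change 1.93, adjusted p = 0.026). Each of these rises kept its call for 2 of the 6 libraries dropped in turn and lost it for the other 4.

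Below that size, 13 unresolved genes had an adjusted p under 0.05 with a change of less than 1, of which 4 were positive and 9 negative. Of the positive ones, 3 carry a known role. *pfkA*, for a putative 6-phosphofructokinase of glycolysis, was at 96.6, 76.2 and 97.3 RPKM at 24 h and at 163, 178 and 159 RPKM at 48 h (log2 change 0.89 ± 0.23, adjusted p = 0.041). *abfA*, for a putative arabinofuranosidase, was at 8.92, 7.06 and 8.87 RPKM and then at 16.6, 19.5 and 15.9 RPKM (0.98 ± 0.23, adjusted p = 0.028). *CYP505A8*, for a putative cytochrome P450, was at 12.3, 7.49 and 12 RPKM and then at 19.9, 24.2 and 19.8 RPKM (0.97 ± 0.26, adjusted p = 0.046). All 3 were higher with BaP than with DMSO. None of their 48 h values reached down to the 24 h values, as for 9.07% of all 915 genes. After centring all 3 were called higher.

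The 5 most abundant of the transcripts that held are described here. AN1278, without a described function, was at 8799.7, 6538 and 6040.0 RPKM at 24 h and at 8715, 8433 and 6914 RPKM at 48 h (log2 change 0.18 ± 0.25, interval −0.37 to 0.73). AN6633, of unknown function and described as induced by nitrate, was at 6722, 4019.7 and 3905 RPKM and then at 4579, 5701 and 3873 RPKM (−0.02 ± 0.29). AN3703, which overlaps the listed gene AN3704 on the other strand, AN8714 and AN11866 held as well, with log2 changes of −0.39, 0.36 and 0.29. All 5 were higher with BaP than with DMSO at both times.

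The counts of the gene lists below stand beside 52.8% of all 915 genes that held (69.4% without B23) and 6.56% that fell, and no list was tested against the other genes. Among the named genes of energy metabolism higher with BaP, *cycA*, *gsdA* and *swoM* held, *citA* was unresolved, and *pfkA*, given above, had an adjusted p under 0.05 with a change below the size required for a call. *cycA*, for cytochrome c, was at 1230.0, 659 and 1014 RPKM at 24 h and at 933, 941 and 955 RPKM at 48 h (log2 change 0.01 ± 0.27, held). *gsdA*, for a putative glucose 6-phosphate dehydrogenase at the entry to the pentose phosphate shunt, was at 395, 277 and 315 RPKM and then at 477, 426 and 422 RPKM (0.43 ± 0.24, held, with every 48 h library above every 24 h library, as for 9.07% of all 915 genes). *citA*, for the mitochondrial citrate synthase, was at 199.7, 172 and 192 RPKM and then at 222, 364 and 216 RPKM (0.47 ± 0.27, interval −0.12 to 1.06, unresolved). *swoM*, for a putative glucose-6-phosphate isomerase, held at a log2 change of 0.45 ± 0.22. In the list of central carbon and respiration genes 4 of 8 held and 1 fell, and in that of glycolysis and the pentose phosphate pathway 2 of 4 held and 1 fell. The fallen gene was the same in both, AN10700 (log2 change −1.31 ± 0.27, a call lost without B24, B29 or B30), which entered by its description as an aldolase and oxaloacetate decarboxylase and is not an enzyme of glycolysis.

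Of 6 DNA repair genes 5 held and none was called. AN0097, whose orthologs act in end joining, was at 66.5, 39.1 and 48.8 RPKM at 24 h and at 63.7, 63.1 and 67.1 RPKM at 48 h (log2 change 0.36 ± 0.26, held). AN0604, whose orthologs act in excision repair of pyrimidine dimers, held at −0.30 ± 0.26, with 24.5, 14.0 and 20.6 RPKM at 24 h and 14.1, 15.5 and 16.8 RPKM at 48 h. Of 32 genes of lipids, sterols and peroxisomes 24 held and 1 fell, AN9041, for a putative 3-hydroxyacyl-CoA dehydrogenase (−1.42 ± 0.32, a call lost without B24, B29 or B30 and after centring). In this list AN2602, a putative lipase or esterase, had a log2 change of 1.06 ± 0.40 that missed the threshold (adjusted p = 0.16), and *coaT*, for the CoA-transferase that detoxifies propionyl-CoA, one of 0.88 ± 0.26 (adjusted p = 0.073).

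The list of cytochrome P450 genes leaves out *stcF*, the P450 gene of the sterigmatocystin cluster that fell. Of the 7 genes in this list none was called and none held, with a median change of −0.47. Without B23 the median was −0.24 and 3 of the 7 held. They ranged from *phacB*, for a P450 that acts on aromatic compounds (29.998, 34.6 and 28.6 against 18.8, 20.1 and 18.4 RPKM, log2 change −0.67 ± 0.22, adjusted p = 0.10), to *CYP505A8* at 0.97. *CYP682A1* was between them at 0.69 ± 0.28 (adjusted p = 0.19). The only member higher with BaP than with DMSO was *CYP505A8*.

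Of 63 membrane transporter genes 36 held, 5 fell and none rose, with a median change of −0.10, close to the 52.8% held and 6.56% fallen over all 915 genes. The fallen ones were AN0497, AN1681, AN8084, AN6277 and AN6127, with log2 changes of −2.85, −1.36, −1.29, −1.15 and −1.13, and of these only AN6277 was higher with BaP than with DMSO. AN0497 was called whichever library was dropped, AN1681, AN8084 and AN6127 for 3 of the 6 libraries and AN6277 for 1. AN8084, AN6277 and AN6127 were named after their values were seen. The gene AN8279, for a putative basic amino acid transporter that BaP raised, was at 97.5, 35.6 and 86.7 RPKM at 24 h and at 12.7, 23.2 and 38.2 RPKM at 48 h (log2 change −1.53 ± 0.45, adjusted p = 0.064). B23 was the only 24 h library within the 48 h range, and without it the change was −1.98 and passed the test. Of 43 transcription factor genes 29 held and 1 fell, *oefC* (a call lost without B30), with a median change of −0.14. This list leaves out the activator gene *aflR*, given above, which fell further than *oefC*. *palA*, of the ambient pH pathway, had a log2 change of 0.85 ± 0.26 (adjusted p = 0.081).

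Of 19 genes for polysaccharide and glycoside hydrolases 9 held and 1 fell, *xlnA*. *bxlD*, for a putative xylosidase, had a log2 change of −0.98 ± 0.29 (adjusted p = 0.066), and *chiC*, for a putative endochitinase, held at −0.15 ± 0.27. Of 8 genes for proteases and peptidases 4 held, and of 3 antioxidant genes 2 held, and none of these 11 was called. Of 17 amino acid genes 9 held and 1 fell, *fahA*, for the last enzyme of phenylalanine breakdown. It was at 7.45, 22.1 and 13 RPKM at 24 h and at 3.39, 6.40 and 3.08 RPKM at 48 h (log2 change −1.46 ± 0.38, adjusted p = 0.041, kept for 2 of the 6 libraries dropped in turn and lost after centring). Its neighbour *maiA*, for the enzyme just before it, had a log2 change of −1.16 ± 0.45 that missed the threshold (adjusted p = 0.17). B23 had the highest value of both at 24 h. Of 5 genes whose descriptions name conidia or spores 4 held, among them *SpoC1-C1C* (−0.14 ± 0.29).

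**Figure D3:**
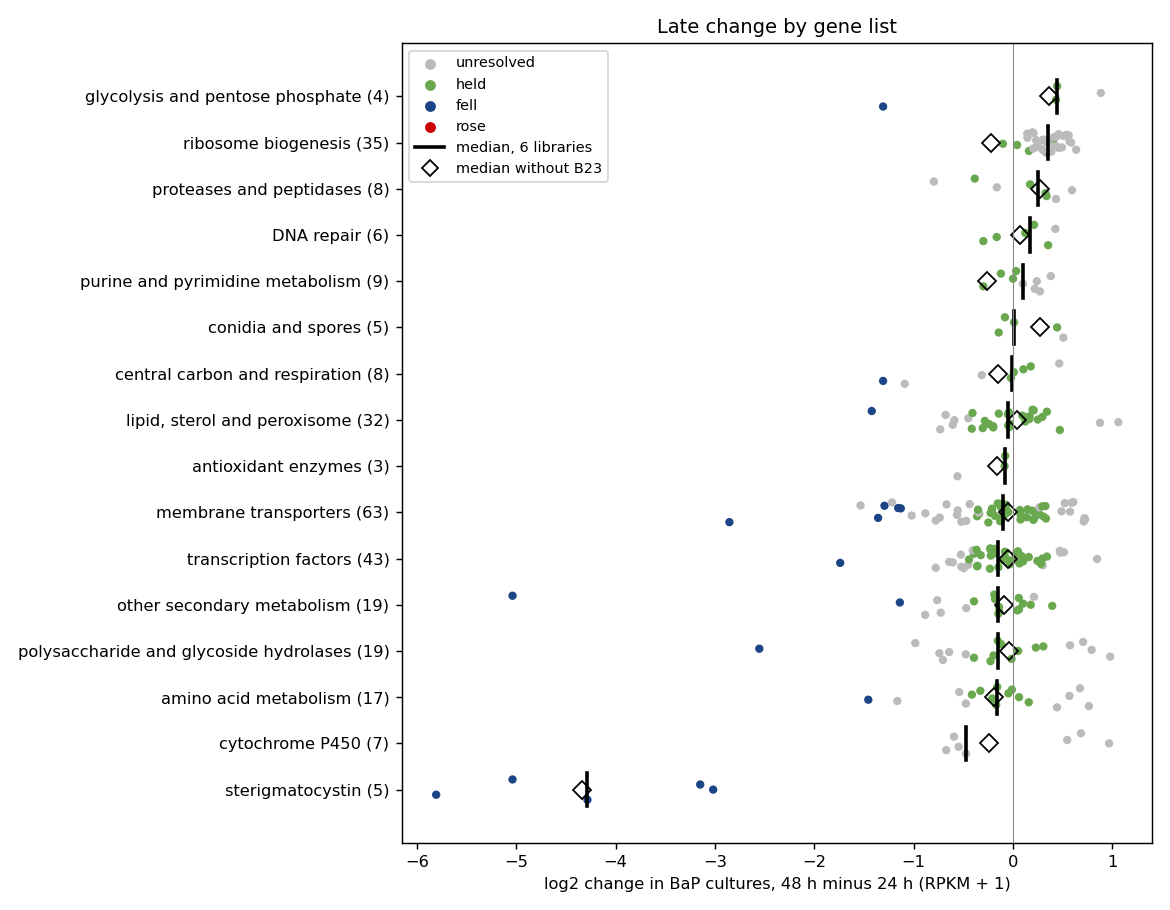
Log2 change of RPKM + 1 from 24 to 48 h in BaP cultures (horizontal axis) for the members of 16 gene lists (rows, with the number of genes). Points are genes coloured by whether they fell, held or were unresolved, black bars are medians over 6 libraries and open diamonds are medians without library B23. The sterigmatocystin list lies apart at −4.28, and the median of the ribosome biogenesis list moves from 0.36 to −0.22 without B23.

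For the ribosome biogenesis genes the sign of the median change depended on B23. These genes encode the nucleolar factors that process ribosomal RNA and assemble ribosomal subunits, and all 35 listed members were higher with BaP than with DMSO. Their median level was 46.4 RPKM in B22, 12.7 in B23 and 37.8 in B24 at 24 h, and 23.4, 39.9 and 51.9 RPKM in B28, B29 and B30 at 48 h. B23 was the lowest 24 h library for all 35, close to the medians of the 6 DMSO libraries, which were 8.91 to 12.9 RPKM. With all libraries 34 of the 35 changes were above 0, with a median of 0.36, and 5 genes held, 30 were unresolved and none was called. Without B23 the median was −0.22, 8 of 35 changes were above 0, 23 genes held and again none was called. AN0745, the ortholog of the yeast nucleolar protein Nop1, was at 101, 27.1 and 88.1 RPKM at 24 h and at 69.6, 99.9 and 133 RPKM at 48 h (log2 change 0.64 ± 0.46, adjusted p = 0.46). AN2283 and AN3313 had log2 changes of 0.59 ± 0.48 and 0.57 ± 0.42 with the same dip in B23.

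**Figure D4:**
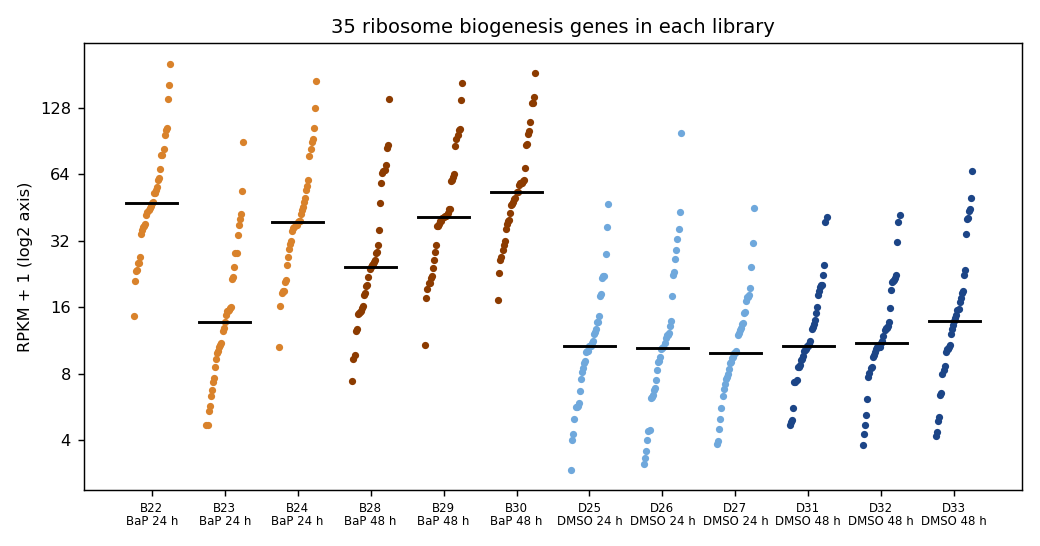
RPKM + 1 on a log2 axis of the 35 ribosome biogenesis genes (points, sorted within a library) in each of the 12 libraries, with a bar at the median. B23 sits well below the other BaP libraries, and B28, B29 and B30 differ among themselves from 23.4 to 51.9 RPKM at the median.

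Of 9 genes of purine and pyrimidine metabolism 4 held and none was called. The median of this list was 0.10. Without B23 it was −0.26 and 7 of the 9 held. AN5566, for a putative GMP synthase, and AN0072, for a putative pseudouridine synthase, had log2 changes of 0.38 ± 0.33 and 0.27 ± 0.44. The DNA repair gene AN0604 entered this list too, through the words pyrimidine dimer.

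In DMSO over the same interval 15 of the 915 genes fell (1.64%) and 4 rose (0.437%). Of the 60 genes that fell with BaP, all 60 had a negative change in DMSO, 43 of them past −1, and 14 passed the test there. The median change of these 60 genes was −1.43 with BaP and −1.21 in DMSO. Without D33 the DMSO cultures gave 14 rises and 16 falls, and dropping any other DMSO library gave at most 1 rise and from 7 to 13 falls.

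The test of BaP change minus DMSO change called no gene in either direction (0%), with a smallest adjusted p of 0.76 in limma. At an unadjusted p under 0.05 there were 17 genes, and voom on the recovered reads called none and had 18. With 1 library dropped the test still called no gene, but the number at an unadjusted p under 0.05 was 68 without D33, 8 without D31, 11 without B24, B30 or D32, and 13 to 19 without any other library. The median standard error of this difference was 0.49 log2 units, against 0.27 for the BaP change alone. The genes of the sterigmatocystin region had differences from −1.91 to −0.55. For *aflR* the difference was −1.57 with an interval of −2.48 to −0.66, for AN11017 −1.91 (−2.99 to −0.83) and for *stcA* −0.60 (−1.49 to 0.30), and after adjustment none passed.

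On the other side of 0, 3 genes, *amyB*, *agdB* and *prtA*, were called higher in DMSO and not with BaP. No more than 1 gene was called higher in DMSO when D25, D26, D27, D31 or D32 was dropped. *amyB*, for a putative alpha-amylase, went from 11.2, 12.2 and 13.1 to 195, 133 and 55.1 RPKM in DMSO (log2 change 3.12 ± 0.46, adjusted p = 0.022) and from 4.66, 4.13 and 1.71 to 10.7, 6.03 and 3.97 RPKM with BaP (0.79 ± 0.37, adjusted p = 0.26). *agdB*, for a putative alpha-glucosidase, had log2 changes of 2.18 in DMSO and 0.71 with BaP, and *prtA*, for an alkaline protease, 2.20 and −0.16. The differences between BaP and DMSO were −2.32 (−3.68 to −0.96) for *amyB* and −1.47 (−2.53 to −0.41) for *agdB*, and these did not pass the adjustment over 915 genes. *oefC* had a change of −0.48 in DMSO and a difference of −1.26 (−2.32 to −0.19). *amyB*, *agdB* and *prtA* were named after their values were seen.

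**Figure D5:**
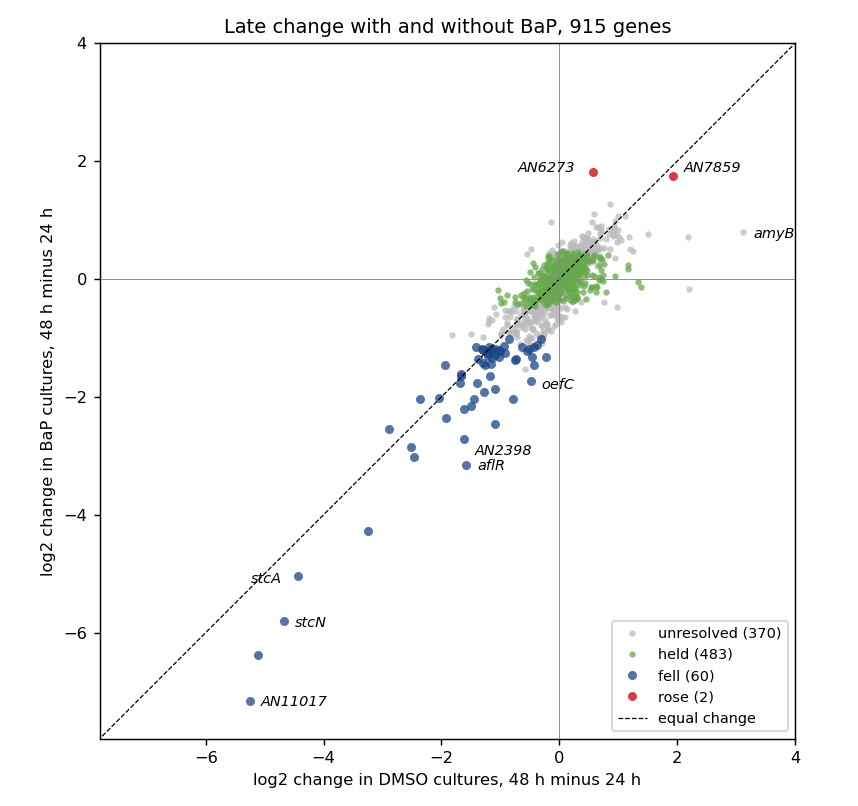
Log2 change of RPKM + 1 from 24 to 48 h in DMSO cultures (horizontal axis) against the same change in BaP cultures (vertical axis) for 915 genes, coloured by their class with BaP, with a dashed line where both are equal. All 60 fallen genes lie left of 0 in DMSO, and *amyB* lies far to the right of the line.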

How the data were processed

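RNA-seq libraries of BaP and DMSO hyphae at 24 and 48 h were used, 12 of the 21 in the series. The submitters' processing notes name FastQC, Subread, featureCounts, limma and Cufflinks; versions and the genome build are not given in the sources used here. The deposited tables give RPKM per library without naming the unit, which was read from low values that are whole multiples of 1 read. All 915 genes gave whole reads (tolerance 0.002). A recovered count can still differ from the true one by a whole multiple. The authors' mean expression (log2) served only to compare the tables' scales. The authors' fold changes and p-values for BaP against DMSO were not used. The coordinates of all 915 genes matched between the tables, and 0 per-sample columns were left unmapped.

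limma 3.58.1 (R 4.3.3) was run on log2(RPKM + 1), 3 against 3 libraries, with Benjamini-Hochberg adjustment over the 915 shared genes; the difference used 12 libraries with an interaction. The code of the fits was also run on simulated counts. These had no library that stood apart, so they do not show how the fits perform on these data. Lists are words or symbols in the tables' descriptions. The members, lists and tests were chosen with earlier results of these data known. Named genes were the 10 largest falls and the rises, genes of the paper's text, the 3 largest changes of each list and the 5 most abundant held genes; others are marked. RefSeq (assembly ASM1142v1) gave gene order only, for 862 of the 915 genes. Tables were handled in Python with pandas. Alternatives are given in the closing section.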

Additional observations from a re-analysis of the deposited data

How the results depend on the processing

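No paired analysis was possible because the columns of the tables carry no replicate numbers. The count of falls with BaP was 37 with libraries centred on their medians, 38 with all 12 libraries in 1 fit and 21 at an adjusted p under 0.01, all of them among the 60; with a pseudocount of 0.1 and with voom it stayed within 1.5 times of 60. The count of rises was 5 with a pseudocount of 0.1, 11 with centring, 4 with voom and 0 at an adjusted p under 0.01. Genes that held numbered 483 as reported, 369 with a pseudocount of 0.1, 359 with voom and 303 with 12 libraries in the fit. With a mean of at least 1 RPKM required in a group, 459 of 886 genes held. When 1 library was left out, the BaP falls ranged from 25 (without B24; 32 without B29 and 26 without B30) to 76, the rises from 0 to 4 and the held genes from 292 (without B24) to 635 (without B23). In DMSO the rises ranged from 0 to 14 (without D33) and the falls from 7 (without D25 or D32; 8 without D27 and 9 without D31) to 16. The difference between BaP and DMSO changes gave 0 calls in every setting run, while its genes at an unadjusted p under 0.05 numbered 17 as reported and from 8 (without D31) to 68 (without D33) with 1 library left out. Requiring a mean of 1 RPKM in a group, or 60 reads over the 6 libraries (added after the data were seen, as was the shift by the table offset), kept all 60 falls. For the named genes, 785 values under alternatives kept their status, which includes genes without a call that stayed without one. Another 39 lost a call, 16 gained one and none reversed, and the causes were not tested. Depth limits the genes with few reads, such as *xlnA*, with 4 reads over the 3 BaP libraries of 48 h.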
